A study of Homo sapiens with 6 samples.

Results

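The genes examined were 40 genes of the antioxidant defence: the regulators around the transcription factor NRF2, the enzymes of glutathione and thioredoxin metabolism, catalase and a superoxide dismutase, suppliers of NADPH, and genes that handle iron, quinones and other reactive compounds. They were chosen by gene symbol, so measured values played no part in the rule itself, and all 40 were matched to an Ensembl identifier among the 63677 identifiers of the count table. T24 is an established cell line from a high-grade human bladder carcinoma, and the study asked which transcripts change when RBM3, an RNA-binding protein, is silenced in it. Control cells received a non-targeting siRNA and siRBM3 cells a pool of siRNAs against RBM3, in both cases with a lipid reagent at 25 nM for 4.5 h followed by recovery overnight, and no other agent was given. Polyadenylated RNA of 3 control libraries (replicates 1, 3 and 5) and 3 siRBM3 libraries (replicates 3, 4 and 5) was sequenced. Both groups come from 1 cell line at 1 time after transfection, and since the sources do not say whether the replicates were separate cultures, p-values measure only the spread between these samples.

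NRF2, encoded by NFE2L2, is held in the cytoplasm by KEAP1, which hands it to a ubiquitin ligase for degradation. When electrophiles or oxidants modify KEAP1, or when SQSTM1 (p62) draws it away, NRF2 enters the nucleus and binds antioxidant response elements with small MAF proteins, at sites where BACH1 otherwise represses. Its targets make and recycle glutathione and thioredoxin, supply the NADPH that both systems consume, and deal with haem, iron and quinones, and NRF2 activity is known to make bladder cancer cells less sensitive to cisplatin.

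The antioxidant response element is a short DNA sequence with the core TGACNNNGC, in which N is any base, or GCNNNGTCA when it is read on the other strand. This core of 9 bases was searched on both strands in the 250 bases before each transcription start of the RefSeq promoter table (GRCh38.p14). There were 47 windows for 31 of the genes, and GSS, HMOX1, FTH1 and PRDX1 were among those without one. A match was found in 7 of these windows (14.9%), against 10.9% of all 35116 windows of the table, and is a description of the sequence only. The matches belong to 6 genes, which are shown because they include GCLM, 1 of the 3 genes with the smallest p below, and classical targets whose levels hardly differed. Each line gives the strand of the gene 5′ to 3′ with the core in capitals, and the core may overlap sites of related factors such as AP-1, whose own motif shares its first bases.
GCLM (chr1:93909446-93909474, minus strand): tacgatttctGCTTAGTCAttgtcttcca
GSTP1 (chr11:67583736-67583764, plus strand): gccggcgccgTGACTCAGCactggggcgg
TXNRD1, upstream start (chr12:104215670-104215698, plus strand): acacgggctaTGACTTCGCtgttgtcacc
TXNRD1, downstream start (chr12:104286920-104286948, plus strand): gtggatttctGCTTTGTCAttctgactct
ME1 (chr6:83431170-83431198, minus strand): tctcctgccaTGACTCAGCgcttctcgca
PGD (chr1:10398853-10398881, plus strand): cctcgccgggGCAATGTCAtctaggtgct
KEAP1, farther from the start (chr19:10502807-10502835, minus strand): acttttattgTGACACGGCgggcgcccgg
KEAP1, nearer to the start (chr19:10502784-10502812, minus strand): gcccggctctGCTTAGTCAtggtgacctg

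The depth was 23603992 to 45098612 counts on genes per library, with siRBM3 replicate 3 the deepest. Counts of the mitochondrial genome made up 1.63% to 2.86% of the control libraries and 2.32% to 9.40% of the siRBM3 libraries, highest in siRBM3 replicate 3. Levels are given in CPM, a gene's counts relative to the library total on a common scale, where totals were first multiplied by the TMM factors of edgeR. In the order of the replicate numbers, the control libraries held 225, 367 and 300 CPM of RBM3 and the siRBM3 libraries 54.1, 90.0 and 58.3 CPM, so 22.7% of the control level was left and the labels held in every library. RBM3 thus differed by -2.14 on the log2 scale (standard error, SE, 0.24), with a Benjamini-Hochberg FDR of 0.0822 in edgeR. The label was checked against marker genes: the epithelial keratins KRT7, KRT8, KRT18 and KRT19 were at 206 CPM or more in every library, vimentin was at 2166 CPM or more, and epithelial EPCAM was at 4.89 to 6.87 CPM. Of the urothelial markers, PPARG was at 132 to 149 CPM, GATA3 at 9.30 to 14.2 CPM and UPK2 at 1.13 to 1.86 CPM, while UPK1B, UPK3A and KRT20 were at 0.275 CPM or less. The epithelial cadherin CDH1 was at 0.723 CPM or less. Of the immune markers named here, CD14 was at 2.03 to 2.83 CPM and PTPRC and CD3E were at 0.172 CPM or less. Endothelial CDH5 was at 27.2 to 40.4 CPM and VWF at 0.689 CPM or less. Of the fibroblast markers, COL1A1 was at 7.30 to 9.51 CPM, COL1A2 at 0.459 to 2.45 CPM and DCN at 0.0382 CPM or less. CDH5 thus lay above EPCAM and GATA3 in every library, and the reason was not tested.

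Of the 40 genes, 37 passed the filter on low counts and were tested. TXNIP, an inhibitor of thioredoxin, SRXN1, which repairs over-oxidised peroxiredoxins, and PRDX2 were listed at 0 in every library under the identifiers that GENCODE pairs with these symbols. The same was true of 2898 of 19488 protein-coding genes (14.87%), so these zeros are not read as absence of the transcript. Calls required a 1.5-fold difference together with an FDR under 0.01. None of the 37 genes met this in edgeR with Benjamini-Hochberg adjustment, where 0% of all 15099 genes did. The smallest edgeR FDR was 0.0822 over all genes, and the silenced RBM3, at that FDR, was not called either. The absence of calls is therefore not a result about these genes, among which the smallest FDR was 0.131. DESeq2 called 1 of the 37 genes, SQSTM1, against 1.22% of all genes to which it gave an adjusted p.

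As a group, the antioxidant genes differed little between siRBM3 and control cells. The fitted log2 fold change was above 0 for 15 genes and below 0 for 22, with a median of -0.04 beside -0.01 over all genes tested. With scaling by library size only, 27 were below 0 and the median of all genes was -0.06. The values lay between -0.67 for SQSTM1 and 0.25 for GPX8, and 17 genes were within 0.1 of no difference. The median size of the log2 fold change, regardless of direction, was 0.123 for these genes and 0.173 for all genes tested. Of the 37 genes, 0 had an unadjusted p under 0.05 and were higher (6.56% of all genes), and 3 had one and were lower (6.58% of all genes), namely SQSTM1, GCLM and GSS. In 0 genes did all siRBM3 libraries lie above all control libraries (9.98% of all genes), and in 4 they all lay below (9.93% of all genes). These 4 were SQSTM1, GCLM, GSS and TXNRD2, and at 10.8% of the 37 genes their share was near the background. Leaving the mitochondrial genome counts out changed none of these 4 counts. Without control replicate 1 the lower counts were 7 at an unadjusted p under 0.05, where 8.64% of all genes were lower, and 13 without overlap, where 18.3% of all genes had none. Without siRBM3 replicate 4 the number without overlap was 7, against 13.4% of all genes. With fewer libraries in a group, such gaps arise more often, so these shares and not those of the full comparison are the background. Taken out of 37 genes, the lower counts just given were each above their background, and the reason was not tested. Dropping any other library left 4 to 6 lower genes with no overlap, against 13.2% to 15.6% of all genes. Those counts fell on both sides of their background.

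**Figure D1:**
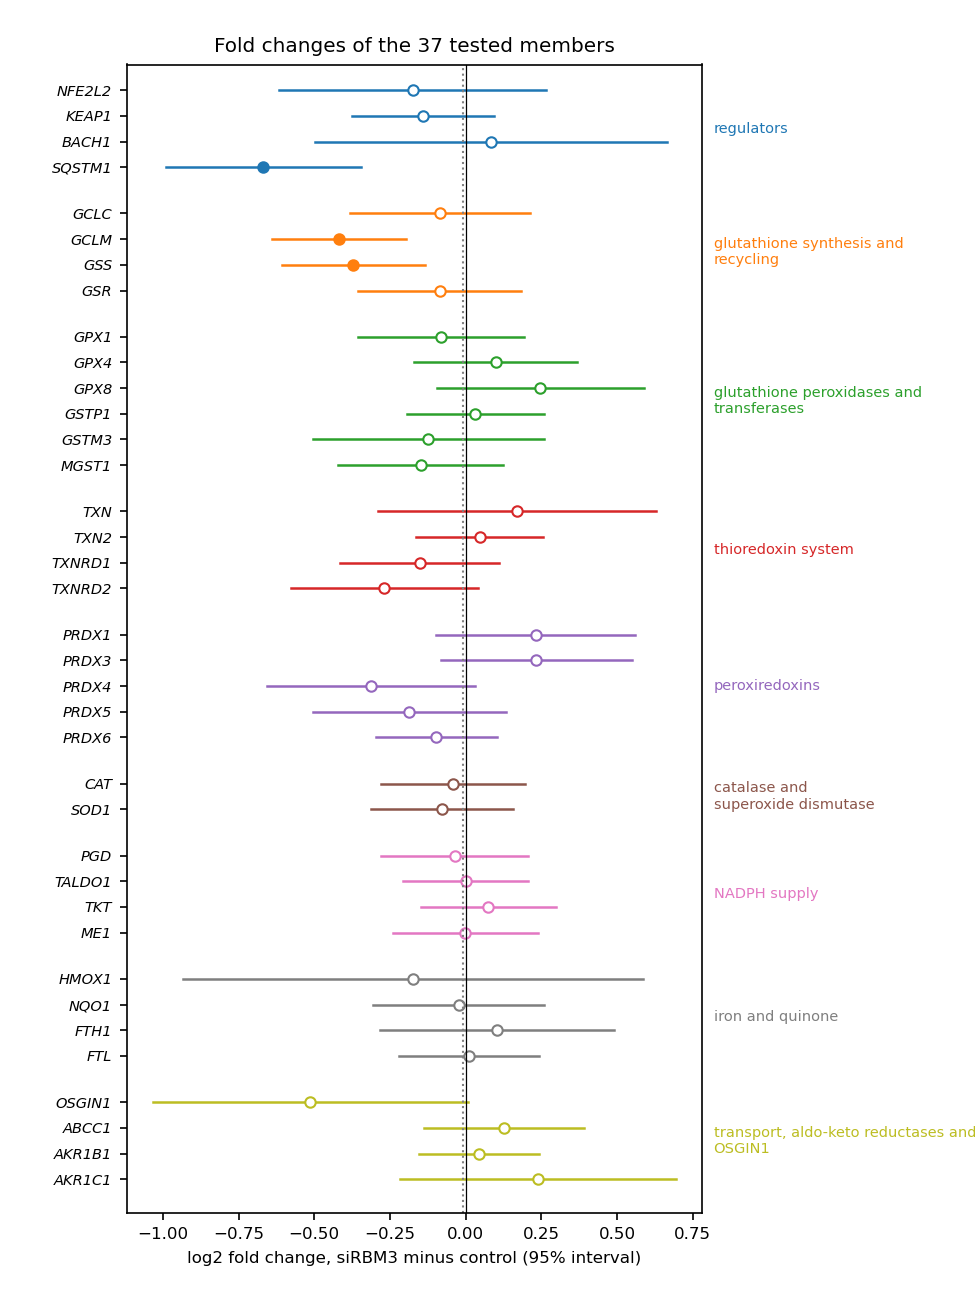
Log2 fold change of siRBM3 against control for the 37 genes tested, by role, from the edgeR fit, with points for the estimates (filled where the unadjusted p was under 0.05), bars for their 95% intervals and a dotted line at the median of all genes tested. SQSTM1, GCLM and GSS lie below 0 with their whole interval, and the intervals of all other genes cross 0.

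The regulators were led by SQSTM1 (ENSG00000161011, chromosome 5, 179233398 to 179265078, plus strand, GRCh37), the selective autophagy receptor that binds KEAP1 and is itself an NRF2 target. Its level in the control libraries was 331, 407 and 484 CPM, and in the siRBM3 libraries 241, 276 and 253 CPM, again in the order of the replicate numbers. The highest siRBM3 library lay below the lowest control library, and the control libraries were the more widely spread. The means were 407 ± 76.3 CPM (SD, n = 3) and 257 ± 17.6 CPM (SD, n = 3), so that siRBM3 cells held 62.9% of the control level. On the log2 scale SQSTM1 differed by -0.67 (SE 0.14, 95% interval -0.99 to -0.35). Its Benjamini-Hochberg FDR was 0.131 in edgeR and 0.0061 in DESeq2. Omitting single libraries moved the estimate no farther than -0.80 and -0.53. Of its exon bases, 22.4% are shared with MRNIP and MGAT4B on the opposite strand, and the strand setting of the counting was not stated. SQSTM1 had no match to the element's core in its windows of 250 bases, and sequence farther away was not searched.

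The other regulators did not differ beyond the spread of their libraries. NFE2L2, which encodes NRF2, was at 111, 188 and 178 CPM in the control libraries and at 158, 130 and 135 CPM in the siRBM3 libraries, in the order of their replicate numbers. The siRBM3 values all lay within the range of the control values, and the log2 fold change was -0.18 (SE 0.19, edgeR FDR 0.749). It was -0.38 without control replicate 1 (edgeR FDR 0.164), -0.27 without siRBM3 replicate 3, -0.09 without control replicate 5 and -0.04 without control replicate 3. Exon bases shared with HNRNPA3 and other genes made up 38.4% of NFE2L2. KEAP1, its negative regulator, was at 65.0, 55.1 and 60.1 CPM in control and at 51.4, 55.9 and 56.4 CPM in siRBM3 cells, a log2 fold change of -0.14 (edgeR FDR 0.612) with overlapping groups. BACH1, the repressor at the same DNA sites, was at 41.4, 83.4 and 61.6 CPM in control and at 81.4, 57.0 and 58.6 CPM in siRBM3 cells. The control libraries of BACH1 spanned the siRBM3 libraries, and its log2 fold change of 0.08 (edgeR FDR 0.921) turned to -0.14 without control replicate 1.

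Among the glutathione genes, those that make and recycle the tripeptide were lower in siRBM3 cells as a set of estimates, all 4 below 0 with a median log2 fold change of -0.23. It held both of the glutathione genes with an unadjusted p under 0.05, out of 10 in all. GCLM (ENSG00000023909, chromosome 1, 94350755 to 94375012, minus strand, GRCh37) encodes the modifier subunit of glutamate-cysteine ligase, the enzyme of the rate-limiting step, and is a classical NRF2 target. GCLM was at 45.3, 47.5 and 45.8 CPM in the control libraries and at 34.3, 33.1 and 36.3 CPM in the siRBM3 libraries. Libraries of the same group were close together and the groups were well apart. The means were 46.2 ± 1.17 CPM and 34.6 ± 1.599 CPM (SD, n = 3 each), or 74.9% of control, with a log2 fold change of -0.42 (SE 0.10, 95% interval -0.64 to -0.20). The FDR was 0.157 in edgeR with Benjamini-Hochberg adjustment and 0.0194 in DESeq2, and leaving out any library kept the log2 fold change between -0.45 and -0.39.

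GSS (ENSG00000100983, chromosome 20, 33516235 to 33543830, minus strand, GRCh37), glutathione synthetase, adds glycine in the second step and had the highest level per length of these genes. GSS was at 114, 122 and 128 CPM in control and at 83.4, 98.7 and 99.5 CPM in siRBM3 cells. Its groups did not overlap, and siRBM3 replicate 3 was the lowest of all libraries. GSS differed by -0.37 on the log2 scale (SE 0.10), at a Benjamini-Hochberg FDR of 0.209 in edgeR and 0.106 in DESeq2. GCLC, the catalytic subunit that GCLM modifies, had a log2 fold change of -0.08, with a 95% interval from -0.38 to 0.21. GSR, which reduces oxidised glutathione with NADPH, had -0.09 with an interval from -0.36 to 0.18. The intervals of GCLC and GCLM overlap, and the difference between the subunits was not tested.

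The enzymes that use glutathione showed no common direction, with 3 genes above and 3 below 0 and a median log2 fold change of -0.03. GPX8, a peroxidase of the endoplasmic reticulum, had the highest estimate of all 37 genes, at 69.5, 90.8 and 98.5 CPM in control and 112, 106 and 88.8 CPM in siRBM3 cells. Its groups overlapped, and the log2 fold change was 0.25 (SE 0.15, edgeR FDR 0.525). GSTP1, the most abundant glutathione transferase here per length of transcript, was at 500, 416 and 459 CPM in control and at 451, 478 and 476 CPM in siRBM3 cells. All siRBM3 values of GSTP1 lay inside the range of the control values, with a log2 fold change of 0.03 (edgeR FDR 0.922) that became -0.02 with scaling by library size only. Log2 fold changes of the remaining genes of this group were -0.08 for GPX1, 0.10 for GPX4, the peroxidase of lipid hydroperoxides, -0.12 for GSTM3 and -0.15 for MGST1.

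**Figure D2:**
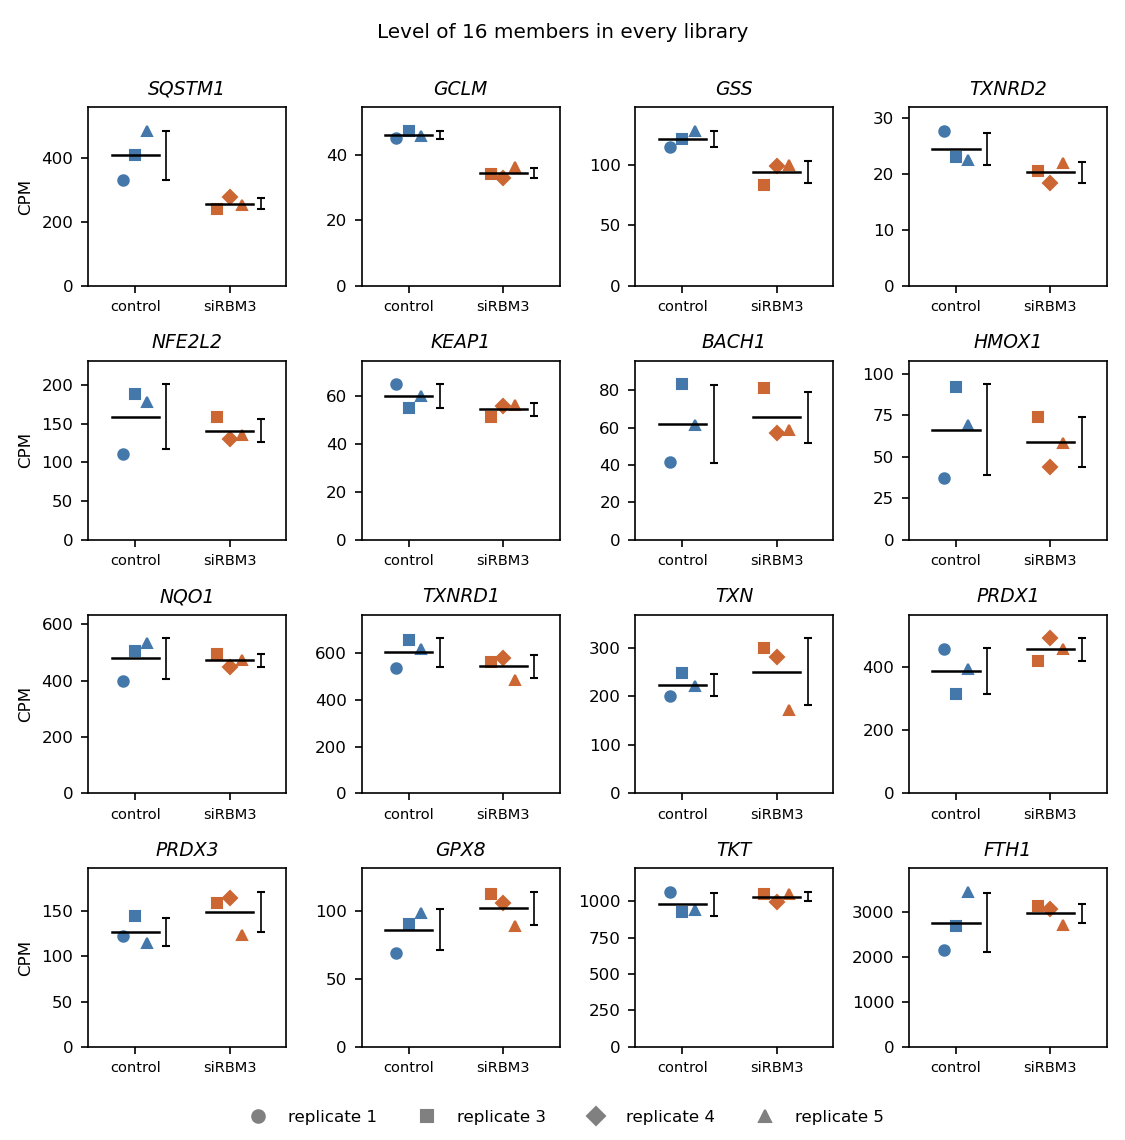
Level in CPM of 16 of the genes in each library, with 1 point per library shaped by its replicate number, a line for the mean of the group and a bar beside it for the mean ± SD (n = 3). Control and siRBM3 points are apart for SQSTM1, GCLM, GSS and TXNRD2 and overlap in the other panels.

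In the thioredoxin system, which passes electrons from NADPH to oxidised proteins and peroxiredoxins, 2 genes were above and 2 below 0, with a median log2 fold change of -0.05. TXNRD1, the cytosolic thioredoxin reductase and a classical NRF2 target, was at 538, 659 and 618 CPM in control and at 564, 581 and 488 CPM in siRBM3 cells. Its groups overlapped, and the log2 fold change was -0.15 (SE 0.11, edgeR FDR 0.619). TXN, thioredoxin itself and the highest of the system per length, was at 202, 248 and 221 CPM in control and at 300, 283 and 172 CPM in siRBM3 cells. The siRBM3 libraries of TXN held both the highest and the lowest values of all, and the log2 fold change was 0.17 (SE 0.20, edgeR FDR 0.771). TXNRD2, the mitochondrial reductase, fell under no naming rule and was singled out after its values were seen because its groups did not overlap. TXNRD2 was at 27.7, 23.0 and 22.5 CPM in control and at 20.5, 18.3 and 21.97 CPM in siRBM3 cells, where the nearest libraries of the groups were close to each other. The estimate for TXNRD2 was -0.27 on the log2 scale (SE 0.14, edgeR FDR 0.447), and that of mitochondrial TXN2 was 0.05, which became -0.002 with scaling by library size only.

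The peroxiredoxins, most of which reduce hydrogen peroxide at the expense of thioredoxin, split as well, with PRDX1 and PRDX3 above 0 and PRDX4, PRDX5 and PRDX6 below. PRDX1, the cytosolic NRF2 target and the highest of them per length, was at 457, 313 and 393 CPM in control and at 418, 491 and 456 CPM in siRBM3 cells. The groups overlapped through control replicate 1, with a log2 fold change of 0.23 (SE 0.14, edgeR FDR 0.537), and 29.8% of its exon bases are shared with MMACHC on the opposite strand. PRDX3, the mitochondrial peroxiredoxin, was at 123, 144 and 114 CPM in control and at 159, 165 and 124 CPM in siRBM3 cells. Only siRBM3 replicate 5 of PRDX3 lay within the control range, and the log2 fold change was 0.23 (SE 0.14, edgeR FDR 0.517). Log2 fold changes were -0.31 for PRDX4 of the endoplasmic reticulum, -0.19 for PRDX5 and -0.10 for PRDX6. Outside these systems, SOD1, the cytosolic superoxide dismutase, was at 163, 154 and 171 CPM in control and at 162, 163 and 137 CPM in siRBM3 cells. Its groups overlapped at a log2 fold change of -0.08, and catalase (CAT) had -0.04.

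The 4 NADPH suppliers of the list were the most even of all groups, while NADK and RPIA of the wider list are described below. TKT, transketolase of the pentose phosphate pathway, was the highest of them per length, at 1066, 926 and 942 CPM in control and at 1050, 994 and 1047 CPM in siRBM3 cells. The siRBM3 libraries of TKT lay within the control range, and the log2 fold change was 0.07 (SE 0.10, edgeR FDR 0.793). Log2 fold changes were within 0.01 of 0 for TALDO1, transaldolase, and ME1, malic enzyme, whose signs turned with the scaling or the tool, and -0.04 for PGD, the dehydrogenase that releases NADPH from phosphogluconate. The 95% intervals of all 4 genes lay between -0.28 and 0.30 on the log2 scale, which bounds the differences that these libraries leave possible.

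The genes of iron and quinone handling had estimates on both sides of 0 and the widest control spread. NQO1, the quinone reductase often used as a readout of NRF2, was at 397, 506 and 534 CPM in control and at 493, 449 and 472 CPM in siRBM3 cells. All siRBM3 values of NQO1 lay between the lowest and the highest control, and the log2 fold change was -0.02 (SE 0.12, 95% interval -0.31 to 0.26, edgeR FDR 0.956). HMOX1, haem oxygenase, which is repressed by BACH1, was at 37.4, 92.2 and 68.8 CPM in control and at 73.8, 43.6 and 58.4 CPM in siRBM3 cells. Control replicate 3 of HMOX1 was 2.47 times control replicate 1, and the log2 fold change of -0.17 (SE 0.32, edgeR FDR 0.859) became 0.14 without control replicate 3. FTH1, the ferritin heavy chain and the highest per length of all 40 genes, was at 2139, 2681 and 3446 CPM in control and at 3116, 3051 and 2709 CPM in siRBM3 cells. The siRBM3 values of FTH1 again lay within the control range, and its log2 fold change of 0.10 (edgeR FDR 0.840) turned to -0.05 without control replicate 1. Of its exon bases, 63.2% are shared with BEST1 on the opposite strand. FTL, the ferritin light chain, had a log2 fold change of 0.01, which turned to -0.04 with scaling by library size only.

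Of the last group, AKR1B1, an aldo-keto reductase and its highest gene per length, was at 158, 144 and 156 CPM in control and at 164, 156 and 152 CPM in siRBM3 cells. The groups overlapped, with a log2 fold change of 0.04 (edgeR FDR 0.861) that became -0.01 with scaling by library size only. AKR1C1, which reduces steroids and lipid aldehydes, was at 28.3, 32.1 and 48.9 CPM in control and at 39.1, 43.5 and 46.4 CPM in siRBM3 cells. Control replicate 5 of AKR1C1 lay above every siRBM3 library, and the log2 fold change was 0.24 (SE 0.20, edgeR FDR 0.658). Its reads can be shared with near-identical members of the AKR1C family, so this value is uncertain. OSGIN1, an oxidative stress-induced growth inhibitor, was at 5.68, 6.27 and 8.62 CPM in control and at 4.21, 4.30 and 5.93 CPM in siRBM3 cells. It had the second lowest estimate of the 37 genes, a log2 fold change of -0.51 (SE 0.23, 95% interval -1.03 to 0.01, edgeR FDR 0.387), and its groups overlapped through siRBM3 replicate 5. ABCC1, an exporter of glutathione conjugates, had a log2 fold change of 0.13.

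The role groups were then set side by side by library. For each gene the log2 CPM was expressed relative to its mean over the 6 libraries, and these values were averaged over the genes of a group. For glutathione synthesis and recycling the averages were 0.08, 0.14 and 0.14 in control and -0.17, -0.09 and -0.11 in siRBM3 cells on this log2 scale. This was the 1 role group whose libraries separated by treatment, and it was chosen among groups whose results were already known, so no test is given. Of all single genes tested, 9.98% separated with siRBM3 higher and 9.93% with siRBM3 lower, and no such share was taken for averages of genes. For NADPH supply the averages were 0.05, -0.04 and -0.02 in control and -0.03, 0.02 and 0.02 in siRBM3 cells, a spread near 0 throughout. For iron and quinone genes they were -0.37, 0.16 and 0.20 in control and 0.14, -0.11 and -0.02 in siRBM3 cells, where control replicate 1 stood below the rest. For thioredoxin and peroxiredoxin genes together they were -0.04, 0.05 and 0.04 in control and 0.03, 0.05 and -0.13 in siRBM3 cells, with siRBM3 replicate 5 the lowest. The glutathione groups together had a median log2 fold change of -0.09 over 10 genes, thioredoxin with peroxiredoxins -0.10 over 9, NADPH supply 0.00 over 4 and iron and quinone -0.01 over 4.

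**Figure D3:**
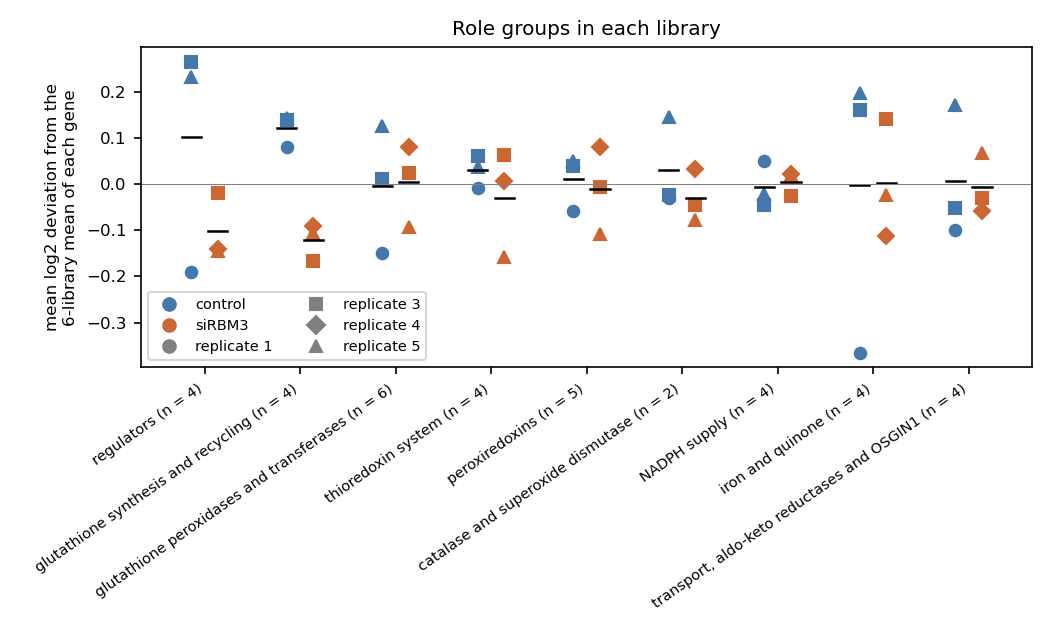
Mean log2 level of each role group in each library relative to the mean over all libraries, with 1 point per library, a short line for the mean of 3 libraries and the number of genes averaged beside each name. The groups of libraries are apart for glutathione synthesis and recycling, and control replicate 1 lies at -0.37 for iron and quinone genes.

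By the median SD, libraries of the same group lay closer together for these genes than for all genes tested. The comparison was not matched for level, and control libraries ranged 2.47-fold for HMOX1 and 2.02-fold for BACH1. The median SD of the log2 level was 0.1497 between control libraries and 0.115 between siRBM3 libraries, against 0.208 and 0.173 over all genes tested with counts in every library. Control replicate 1 was the lowest control for 24 of the 37 genes, and control replicate 5 the highest control for 17. Over all libraries, control replicate 1 was the lowest for 12 genes and control replicate 5 the highest for 16. Levels per kilobase of the canonical transcript in control cells ran from 2290 CPM per kb for FTH1, 1137 for FTL and 618 for GSTP1 down to 5.19 for GCLC and 3.57 for OSGIN1.

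Other settings changed the significance of SQSTM1 more than its size. Its FDR was 0.131 in edgeR, 0.139 in limma-voom and 0.0061 in DESeq2, all with Benjamini-Hochberg adjustment. Leaving out control replicate 5 brought the log2 fold change nearest to 0, at -0.53, and leaving out control replicate 1 took it to -0.80.

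**Figure D4:**
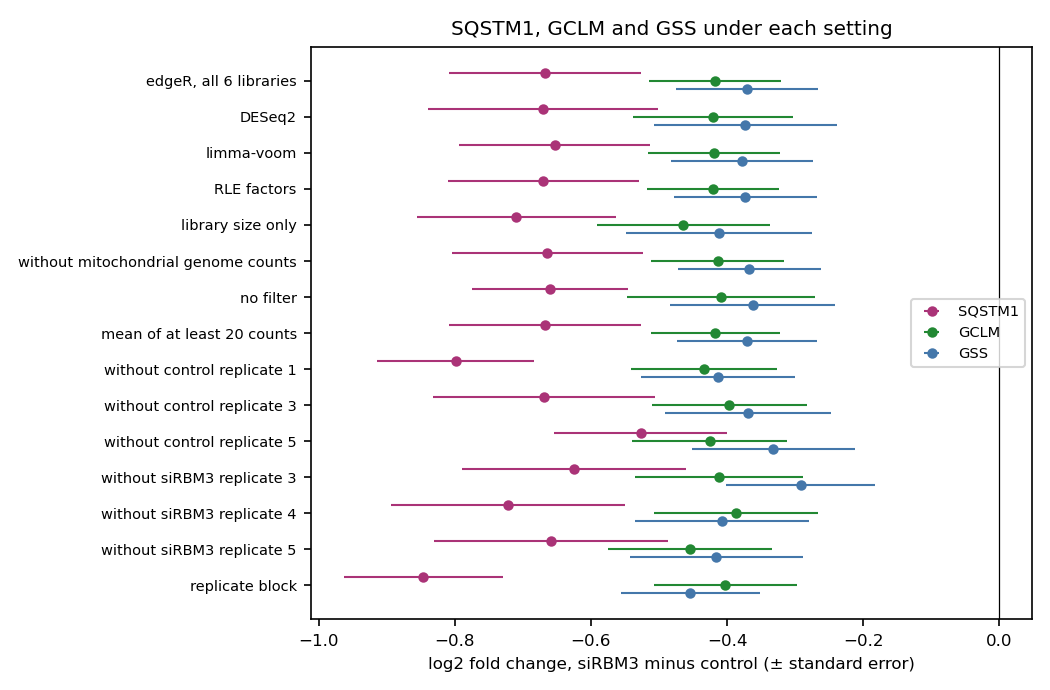
Log2 fold change of SQSTM1, GCLM and GSS in siRBM3 against control under each tool, scaling, filter, left-out library and the replicate block, with bars for ± the standard error. The estimates stay below 0 under every setting shown, between -0.85 and -0.29, and SQSTM1 is the farthest from 0 in each.

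A wider list of genes of the same pathways was examined for context. Of 95 symbols, 93 were matched and 84 were tested, of which 36 had a log2 fold change above and 48 below 0, with a median of -0.05. An unadjusted p under 0.05 was found for 7 higher genes (6.56% of all genes) and 9 lower ones (6.58%), and 8 and 11 had no overlap between the groups (9.98% and 9.93%). None was called by edgeR, which called 0% of all genes. DESeq2 called 2, NADK and RPIA, against 1.22% of all genes to which it gave an adjusted p. Without siRBM3 replicate 3 the counts at an unadjusted p under 0.05 were 2 higher and 6 lower, and without siRBM3 replicate 5 they were 6 and 4. Without control replicate 3 they were 4 and 5, without control replicate 5 they were 3 and 8, and without siRBM3 replicate 4 they were 4 and 5. Over these omissions, 4.35% to 5.95% of all genes were higher and 4.51% to 5.35% lower.

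The lowest p of the wider list belonged to NADK and RPIA, listed there under NADPH supply, and to GGCT of glutathione turnover. Of the 12 genes listed there under NADPH supply, 6 were above and 6 below 0, with a median log2 fold change of -0.01. NADK, the kinase that makes NADP from NAD, was at 60.8, 60.2 and 60.0 CPM in control and at 38.8, 38.2 and 40.2 CPM in siRBM3 cells. The libraries of each group nearly coincided, and the log2 fold change was -0.63 (SE 0.09, FDR 0.0822 in edgeR with Benjamini-Hochberg adjustment). RPIA, ribose 5-phosphate isomerase, was at 26.1, 26.9 and 26.4 CPM in control and at 15.9, 18.7 and 12.6 CPM in siRBM3 cells. Again the groups did not overlap, with a log2 fold change of -0.75 (edgeR FDR 0.130, DESeq2 0.0024). GGCT, gamma-glutamylcyclotransferase of glutathione turnover, was at 22.7, 24.1 and 22.1 CPM in control and at 12.4, 18.0 and 11.4 CPM in siRBM3 cells, below every control library, with a log2 fold change of -0.72 (edgeR FDR 0.175).

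SESN1, a sestrin induced by p53, was among those with higher estimates, at 4.96, 4.97 and 4.36 CPM in control and at 7.11, 6.39 and 8.26 CPM in siRBM3 cells. The groups of SESN1 did not overlap, with a log2 fold change of 0.61 (edgeR FDR 0.214). GSTA4, a glutathione transferase for hydroxynonenal, was at 3.17, 3.32 and 3.20 CPM in control and at 5.33, 4.42 and 4.39 CPM in siRBM3 cells, without overlap and with a log2 fold change of 0.55 (edgeR FDR 0.261). MAFF, a small MAF partner of NRF2 and BACH1, was at 85.0, 134 and 100.3 CPM in control and at 90.8, 61.0 and 65.5 CPM in siRBM3 cells. Here siRBM3 replicate 3 lay within the control range, and the log2 fold change was -0.55 (edgeR FDR 0.307).

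**Figure D5:**
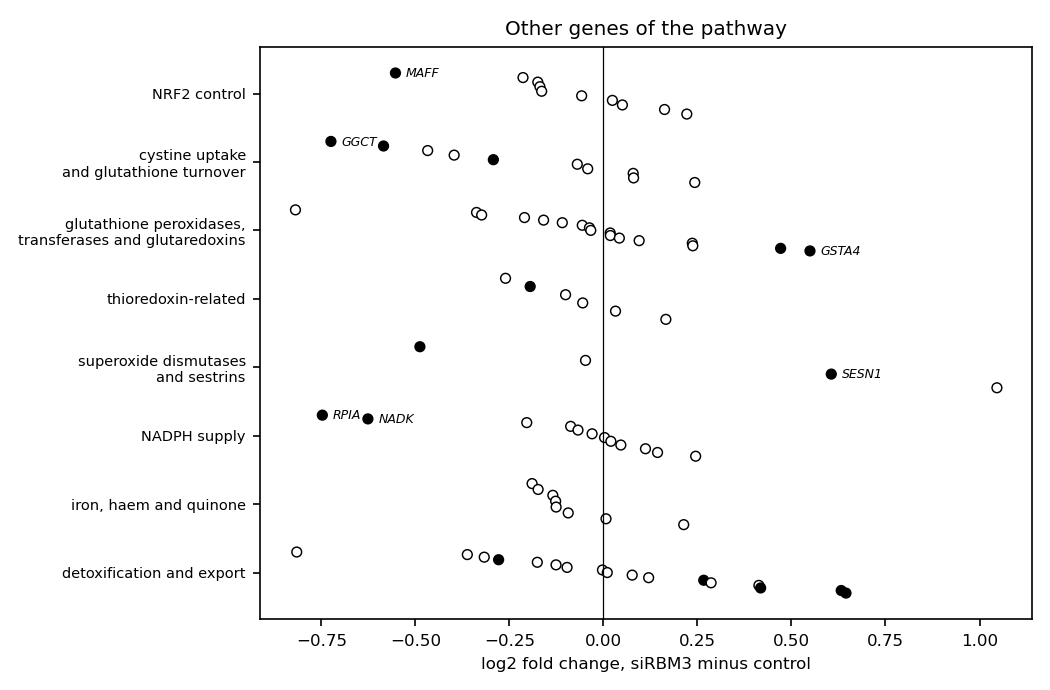
Log2 fold change of siRBM3 against control for the 84 tested genes of the wider list, with 1 point per gene in the row of its role, filled where the unadjusted p of the edgeR test was under 0.05. Of the named genes, NADK, RPIA, GGCT and MAFF lie on the left, SESN1 and GSTA4 on the right.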

How the data were processed

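Polyadenylated RNA from 6 T24 libraries, 3 control and 3 siRBM3, was analysed from the count table. Reads were trimmed with BBDuk, aligned to GRCh37 with STAR 2.5.2a, marked for duplicates with Picard and assigned to genes with featureCounts. The table deposited by the authors holds raw, unscaled counts for each Ensembl gene. Which annotation release and strand setting were used, and how duplicates were handled, was not stated. Symbols and coordinates came from GENCODE (GRCh37), which matched 55665 of 63677 identifiers.

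The members and the lists of genes were chosen with earlier results of these data known. Counts were filtered with filterByExpr (minimum count 10, minimum total 15), scaled by TMM and fitted with the robust quasi-likelihood method of edgeR 4.0.16, with Benjamini-Hochberg adjustment over all 15099 genes. Calls required a 1.5-fold difference together with an FDR under 0.01. The study's methods name DESeq2, which was run here as an alternative (1.42.0), as was limma-voom (3.58.1), in R 4.3.3 with tables made in Python 3.11.15. Further alternatives were RLE factors, library size only, removal of mitochondrial genome counts, no filter, omission of single libraries, a mean of at least 20 counts, the replicate number as a block and FDR thresholds of 0.05 and 0.1. The fitting steps were tested on simulated data with the same extra variation between libraries set for every gene. Real libraries vary otherwise, so that test does not show which differences could be found here.

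Values in every library were given for NFE2L2, KEAP1, BACH1, NQO1, HMOX1, GCLM, TXNRD1 and SRXN1, for members with an unadjusted p under 0.05, the 3 highest and 3 lowest log2 fold changes, the member of each role group highest per length, and the 6 genes of the wider list with the smallest p. Within the groups, no 2 libraries agreed within sampling noise, with a chi-square per degree of freedom of 27.7 to 141. With 3 libraries per group an exact permutation test cannot go below p = 0.1.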

Additional observations from a re-analysis of the deposited data

How the results depend on the processing

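SQSTM1 was the 1 antioxidant gene called by DESeq2, by edgeR with no filter and with the replicate number as a block, against 0 in the main test, in limma-voom and at FDR thresholds of 0.05 and 0.1. Of all genes, DESeq2 called 1.22%, no filter 0.927% and the block 2.23%. At an unadjusted p under 0.05, no filter gave 3 higher and 5 lower (4.70% and 4.73% of all genes). At the same p, left-out libraries gave 0 to 2 higher and 3 to 7 lower, the most lower without control replicate 1. Over these omissions, 4.35% to 7.44% of all genes were higher and 4.51% to 8.64% lower. Without overlap, left-out libraries gave 0 to 4 higher, the most without control replicate 5, and 4 to 13 lower. The shares of all genes without overlap were then 13.5% to 17.1% higher and 13.2% to 18.3% lower. Of the wider list, 2 were called by DESeq2, 4 with no filter and 0 with any library left out. With library size only, 3 of the wider list were higher at an unadjusted p under 0.05, against 4.05% of all genes. Left-out libraries gave 2 to 7 higher and 4 to 10 lower, against 4.35% to 7.44% and 4.51% to 8.64% of all genes.

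Replicate numbers 3 and 5 occur in both groups, but the labels do not say that they mark a shared culture, and the deviations from the group means correlated at 0.647 for number 3 and 0.0908 for number 5. Pairs across the groups with unlike numbers correlated at -0.452 to 0.328, below the value for number 3. Whether number 3 marks a shared culture was not tested, and the numbers were taken as names only. With the replicate block, an unadjusted p under 0.05 was found for 1 higher and 10 lower antioxidant genes of 37, against 11.4% and 13.5% of all genes in that fit. Of the 84 genes of the wider list, 6 were called (2.23% of all genes in that fit). At that p, 10 of them were higher (11.4% of all genes) and 16 lower (13.5%). The block moved NFE2L2 to -0.33 (edgeR FDR 0.0747). The replicate block gave a median log2 fold change of -0.27 for glutathione synthesis and recycling and -2.57 for RBM3. It gave reversed values of -0.052 for BACH1, -0.042 for TXN, 0.0030 for PGD, -0.014 for TALDO1, -0.065 for FTH1 and -0.031 for FTL.

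RBM3 passed the threshold with DESeq2 (-2.14), with no filter (-2.13) and with the replicate block. The median log2 fold change of glutathione synthesis and recycling was -0.27 with library size only and -0.28 to -0.21 with a library left out, that of both glutathione groups -0.17 to -0.042 with a library left out, and that of NADPH supply -0.049 with library size only. Signs turned for genes near 0. With library size only, GSTP1 was at -0.018, TXN2 at -0.0020, TALDO1 at -0.048, FTL at -0.038 and AKR1B1 at -0.0074. TALDO1 was at -0.0023 with DESeq2 and -0.0025 with RLE factors. ME1 was at 0.0031 with limma-voom, 0.0019 without mitochondrial genome counts and 0.0071 with no filter. With a library left out, the log2 fold change ranged from -0.14 to 0.35 for BACH1, -0.034 to 0.097 for GSTP1, -0.29 to 0.0018 for GSTM3, -0.10 to 0.037 for CAT, -0.083 to 0.043 for PGD, -0.051 to 0.048 for TALDO1, -0.039 to 0.061 for ME1, -0.46 to 0.14 for HMOX1, -0.14 to 0.060 for NQO1, -0.052 to 0.29 for FTH1 and -0.055 to 0.077 for FTL. The cause was not tested. The number of antioxidant genes below 0 was 20 to 27 over all settings. SQSTM1, GCLM and GSS were below 0 under every alternative run.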

Other observations

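SLC7A11, the cystine importer that feeds glutathione synthesis and an NRF2 target, fell under no naming rule and was singled out after its values were seen. It was at 78.9, 227 and 164 CPM in control and at 212, 110 and 126 CPM in siRBM3 cells, a log2 fold change of -0.07. Control replicate 1 was the lowest library for SLC7A11, as it was for 12 of the 37 antioxidant genes, among them NFE2L2, BACH1, HMOX1 and FTH1. No such share was taken over all genes.

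Reads of FTH1 and FTL can fall on processed pseudogenes. The 25 pseudogenes named after FTH1 held counts equal to 0.216% of those on FTH1 itself, and the 16 named after FTL held 0.0685%. For GPX1 the share was 0.146% on 2 pseudogenes, and for TXN 0.0548% on 7.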
